A study of Mus musculus with 36 samples.

Results

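GABA-A receptor alpha subunit genes were measured in the cerebellum and hippocampus of mice that lacked 0, 1 or both copies of Pogz in the nervous system. The genes were chosen by name: Gabra2, Gabra3, Gabra4, Gabra5 and Gabra6, 5 of the 24421 genes in the count tables. RNA sequencing libraries came from 18 adult C57Bl/6 mice, each of which gave both tissues, for 36 libraries in all. The groups were 6 controls that carried floxed Pogz alleles (Pogz fl/fl) and no Cre, 6 cKO+/- mice (NesCre/+; Pogz fl/+) and 6 cKO-/- mice (NesCre/+; Pogz fl/fl), with 3 males and 3 females in each. Cre was driven by the Nestin promoter, which acts in the nervous system, and every mutant carried it while no control did, so effects of Cre and of Pogz loss cannot be told apart.

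GABA-A receptors are chloride channels built from 5 subunits and opened by the inhibitory transmitter GABA. The alpha subunit of a receptor helps to set where it sits and how it responds. In the brain, alpha6 is the subunit of cerebellar granule cells, alpha5 is known for receptors outside synapses on hippocampal pyramidal cells, alpha4 pairs with the delta subunit in tonic inhibition of the dentate gyrus and thalamus, and alpha2 and alpha3 are found in receptors at synapses, alpha3 prominently in monoaminergic and brainstem neurons.

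Libraries held 21421850 to 32544929 counted reads in the cerebellum and 17609321 to 45544188 in the hippocampus. Levels are given as CPM, the read count scaled to the size of its library by the trimmed mean of M values (TMM). Pogz itself was at 99.6 ± 15.2 (SD, n = 6) in control cerebellum, 77.7 ± 5.78 in cKO+/- and 65.8 ± 7.34 in cKO-/-. The corresponding levels in the hippocampus were 90.9 ± 1.24, 76.4 ± 2.27 (n = 6 each) and 61.7 ± 3.55 (n = 5). Reads from the part of Pogz that Cre leaves in place are counted too. The hippocampal library of cKO-/- animal Sample_1160 was left out of the tests and its values are given where they differ. All 6 controls had animal numbers within a run from Sample_1120 to Sample_1219. The ends of this run are mutants, and the controls themselves lie from Sample_1129 to Sample_1192. Of the 12 mutants, 7 (Sample_933, Sample_936, Sample_938, Sample_1371, Sample_1379, Sample_1385 and Sample_1433) had numbers outside this run, so results are also given with that split. In the hippocampus, Sample_1219 was the only cKO-/- library of the run that was tested. In the cerebellum, choroid plexus markers summed to 2411 CPM in cKO+/- library Sample_933, 3234 in cKO+/- library Sample_1433 and 3097 in cKO-/- library Sample_936. The other mutants held 22.7 to 83.6 and the controls 22.2 to 30.4. Hox genes, which mark hindbrain behind the cerebellum, summed to 3.24, 18.3 and 7.44 CPM in cerebellar libraries Sample_933, Sample_936 and Sample_1433 and to at most 0.419 in the others.

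The coordinates in the count tables match GRCm38, and each of the 5 genes lies on the minus strand. Gabra2 (chr5:70961057-71095849) and Gabra4 (chr5:71569734-71658308) share chromosome 5 with Gabrg1 and Gabrb1. Gabra6 (chr11:42306437-42321072) lies on chromosome 11, Gabra5 (chr7:57407669-57510009) on chromosome 7, and Gabra3 (chrX:72432676-72656246) on the X chromosome with Gabre and Gabrq. The 3′ end of Gabra5 overlaps Gm9962 on the opposite strand. Whether counting used strand is not given in the sources used here, so reads over this overlap cannot be assigned, and Gm9962 itself had 1 to 21 counts in the cerebellum and 22 to 78 in the hippocampus.

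Promoter sequences are shown for the gene that led in each tissue, Gabra6 and Gabra5, and for Gabra2. With edgeR, Gabra2 had an adjusted p under 0.05 per Pogz allele lost in both tissues, which was lost under other settings given below. Each sequence is the 250 bases before the RefSeq start (GRCm38.p6), read 5′ to 3′ on the minus strand, with every CG dinucleotide in capitals. Gabra6 is from chr11:42321073-42321322, Gabra5 from chr7:57510060-57510309, which begins 50 bases beyond the gene end listed in the count table, and Gabra2 from chr5:71095850-71096099.
Gabra6: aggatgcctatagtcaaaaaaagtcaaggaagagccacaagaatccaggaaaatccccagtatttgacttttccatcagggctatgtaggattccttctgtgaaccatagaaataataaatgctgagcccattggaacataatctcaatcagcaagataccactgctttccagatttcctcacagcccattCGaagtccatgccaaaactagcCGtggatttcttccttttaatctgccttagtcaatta
Gabra5: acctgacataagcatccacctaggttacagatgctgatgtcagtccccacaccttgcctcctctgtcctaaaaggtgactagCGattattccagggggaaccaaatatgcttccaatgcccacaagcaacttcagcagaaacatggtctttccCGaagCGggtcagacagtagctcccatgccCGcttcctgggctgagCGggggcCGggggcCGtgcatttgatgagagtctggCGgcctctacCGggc
Gabra2: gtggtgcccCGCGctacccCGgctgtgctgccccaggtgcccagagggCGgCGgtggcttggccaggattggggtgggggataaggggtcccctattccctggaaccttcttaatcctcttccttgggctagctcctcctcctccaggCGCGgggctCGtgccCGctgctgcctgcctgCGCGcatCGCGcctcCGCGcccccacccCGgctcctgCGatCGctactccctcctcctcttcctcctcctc
The windows hold 2 CG dinucleotides in Gabra6, 9 in Gabra5 and 18 in Gabra2, against a median of 6 over 32841 RefSeq promoter windows of the same length. Their GC content was 40.8%, 56.4% and 70.0%, around a median of 52.4%. Of all windows, 18.8% held fewer CG dinucleotides than that of Gabra6 and 78.3% fewer than that of Gabra2. The letters TTGGC, the core of the motif of nuclear factor I, were searched on both strands and occurred in 41.5% of all windows. Gabra6 had 1 match on the reverse strand, Gabra2 had 1 on the forward strand and Gabra5 had none. These are descriptions of the letters in the windows.

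In control mice the 5 genes had different leaders in the 2 tissues. Per kilobase of exon, Gabra6 stood at 382 ± 24.2 CPM (SD, n = 6) in the cerebellum, and no other member came near it. The next was Gabra2 at 23.7 ± 4.89, followed by Gabra4 at 11.4 ± 0.880, Gabra3 at 3.51 ± 0.856 and Gabra5 at 0.169 ± 0.0798. No neighbours in this order overlapped in the 6 controls. In the hippocampus, Gabra5 led at 86.0 ± 12.1 CPM per kilobase, ahead of Gabra2 at 51.6 ± 5.74, Gabra4 at 30.8 ± 3.47 and Gabra3 at 15.96 ± 4.03. Gabra6 was last, with 1 to 5 counts in 4 of the 6 control hippocampi, 44 counts in animal Sample_1190 and 1773 in animal Sample_1129. Its level in animal Sample_1129, 20.3 CPM per kilobase, lay inside the range of Gabra3 (10.2 to 20.9), which is the only overlap between neighbours in the hippocampal order. Without that library the mean of Gabra6 was 0.115 and its highest value 0.451.

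**Figure D1:**
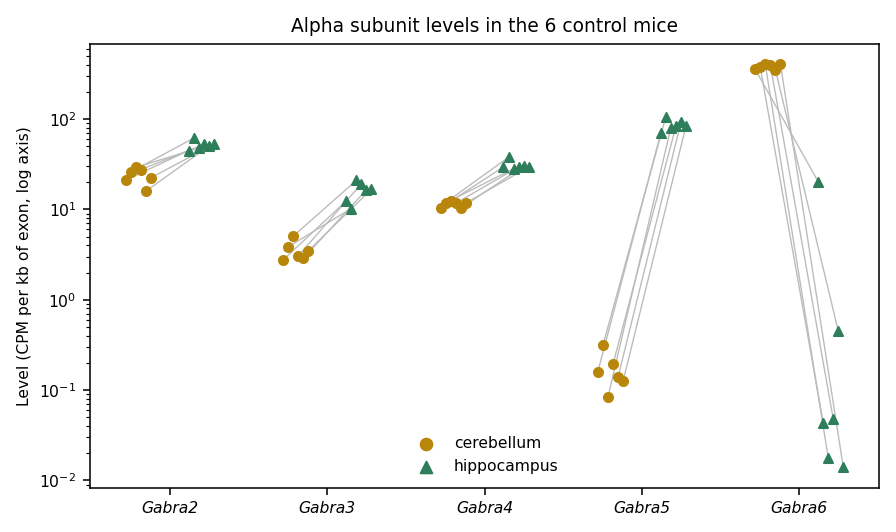
Levels of the 5 genes in the 6 control mice, in CPM per kilobase of exon on a log axis, with a point for each library of the cerebellum and of the hippocampus. Gabra6 is highest in the cerebellum (382 on average) and Gabra5 in the hippocampus (86.0 on average), and the hippocampal point of Gabra6 far above the other 5 is animal Sample_1129.

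All 5 genes differed between control tissues beyond the spread between animals, in a comparison in which 71.9% of the 14224 genes tested were called, 35.2% higher and 36.7% lower in the hippocampus. Of the members, 4 were higher there and Gabra6 was lower. Gabra5 and Gabra6 passed the filter of this fit through the tissue where each is high, so their calls are not read against this background. DESeq2 gave an adjusted p for 4 members and called all 4, but gave none for Gabra6, so it is no test of that gene. Gabra5 had 6 to 25 counts in control cerebellum and 6475 to 10493 in control hippocampus, with no overlap, and each animal had 338 to 970 times more of it in the hippocampus. The difference was 8.98 on the log2 scale (SE 0.170, adjusted p = 5.99e-14 with edgeR's quasi-likelihood test and Benjamini-Hochberg adjustment), a fold of 505. Gabra3 was higher in the hippocampus of all 6 animals, by 2.65 to 6.24 times, and by 2.18 on the log2 scale (SE 0.183, edgeR adjusted p = 1.26e-07). Gabra4 was higher by 1.43 (SE 0.0752, edgeR adjusted p = 1.01e-09) and Gabra2 by 1.13 (SE 0.129, edgeR adjusted p = 3.11e-06), with animals at 2.25 to 3.17 times for Gabra4 and 1.63 to 3.15 times for Gabra2.

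Gabra6 had 24862 to 30276 counts in control cerebellum and was lower in the hippocampus of every animal. The log2 difference was -7.70 (SE 1.40, edgeR adjusted p = 0.000226), and without animal Sample_1129 it was -11.67 (edgeR adjusted p = 1.31e-09). In animal Sample_1129 the cerebellar level was 17.5 times the hippocampal one, and in animal Sample_1190 782 times. The hippocampal library of Sample_1129 also held Cbln3, a granule cell gene, at 71.5 CPM (0.300 to 1.72 in the other 17 libraries), Fat2 at 42.2 (0.0750 to 1.64) and the Purkinje gene Pcp2 at 19.2 (0.0257 to 0.894). The part of these cerebellar transcripts in the Gabra6 value of that library was not tested.

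Across genotypes in the cerebellum, 2 of the 4 members that passed the filter for low counts had a called increase in the fit on the number of Pogz alleles lost, where 13.7% of the 14027 genes tested were called and 7.11% were called higher. These were Gabra2 and Gabra3, which were called in cKO-/- as well (background 12.7%, and 6.83% higher). In cKO+/- alone none of the 4 was called by edgeR or DESeq2, although Gabra2 and Gabra3 had unadjusted p under 0.05 (background 0.342%). Gabra5 failed the filter, which asked for more than 1 CPM in at least 6 libraries, and was fitted without it.

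Gabra2 ranged from 39.5 to 71.3 CPM in control cerebellum (median 59.4), from 72.6 to 94.4 in cKO+/- (median 82.9) and from 75.3 to 140 in cKO-/- (median 82.1). All 12 mutants lay above all 6 controls, which 0.542% of tested genes did, but narrowly (72.6 against 71.3). This depended on the scaling. Per kilobase of exon, scaled over all 36 libraries, cKO+/- animal Sample_1433 (29.0) lay below control Sample_1170 (29.3). The cKO-/- animals Sample_1371 and Sample_1385 lay far above the rest at 140 and 128 CPM. The increase per allele lost was 0.37 on the log2 scale (SE 0.0792, edgeR adjusted p = 0.00555), or 1.29-fold. In cKO-/- it was 0.75 (SE 0.156, edgeR adjusted p = 0.00585), while in cKO+/- the estimate of 0.51 was not called (SE 0.156, edgeR adjusted p = 0.248). Mutants within the run of Sample_1120 to Sample_1219 held 78.7 to 94.4 CPM and those outside it 72.6 to 140. With a covariate for this split the value was 0.31 (edgeR adjusted p = 0.108), and in the 11 animals within the run 0.28 (edgeR adjusted p = 0.148), so the call was lost in both. Scores of brainstem and choroid plexus markers as covariates left it at 0.37 (edgeR adjusted p = 0.00989). The summed astrocyte markers also separated the groups, at 1641 to 1991 CPM in controls, 2195 to 2616 in cKO+/- and 2275 to 2750 in cKO-/-, with 4 of 6 called up. Markers of the hippocampal dentate gyrus, low in this tissue, separated them too, at 46.2 to 74.2, 79.6 to 101 and 83.5 to 110 CPM, with 1 of 3 tested called up. Of other marker lists, 3 of 4 CA1 genes and 2 of 4 CA3 and CA2 genes were called up. Of 10 interneuron genes, 3 were called up and 1 down. Bergmann glia had 2 of 6 genes called up, microglia 2 of 6, oligodendrocytes 2 of 8 and Purkinje cells 1 of 8. Of 6 endothelial genes, 2 were called down. The summed levels of each of these lists overlapped between groups. None of these markers was at 0 throughout, and their part in the Gabra2 result was not tested. As these are bulk tissues, a change in the number of cells that express a gene and a change in its RNA per cell cannot be told apart.

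Gabra3 ranged from 10.95 to 19.2 CPM in controls (median 12.5), from 13.5 to 37.4 in cKO+/- (median 19.3) and from 15.8 to 48.6 in cKO-/- (median 32.4). The groups overlapped, and the high values were in mutants outside the run of Sample_1120 to Sample_1219 (17.9 to 48.6), while the 5 mutants within it held 13.5 to 20.7. The increase was 0.62 per allele lost (SE 0.136, edgeR adjusted p = 0.00712), or 1.54-fold, and 1.24 in cKO-/- (SE 0.279, edgeR adjusted p = 0.00916). In cKO+/- it was 0.70 (SE 0.279, edgeR adjusted p = 0.382), which was not called. With the covariate for animal numbers the per-allele value was 0.26 (edgeR adjusted p = 0.281), within the run alone 0.19 (edgeR adjusted p = 0.356), and with brainstem and choroid plexus scores 0.43 (edgeR adjusted p = 0.0173). Gabra2 and Gabra3 were called whichever of the 18 animals was left out.

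Gabra5 was close to the detection limit in control cerebellum at 0.227 to 0.859 CPM (6 to 25 counts). It ranged from 0.307 to 7.41 CPM in cKO+/- (median 0.833) and from 0.893 to 14.5 in cKO-/- (median 1.32). The highest libraries were Sample_933 with 172 counts, Sample_1433 with 242, Sample_1385 with 268 and Sample_936 with 388. All other mutants had 9 to 50 counts. In CPM all cKO-/- libraries lay above all controls, but narrowly (0.893 against 0.859). In counts they did not, with 20 in Sample_1160 and in Sample_1371 against 25 in control Sample_1155. Such a separation in CPM was seen in 2.67% of the genes that passed the filter, which Gabra5 did not. Fitted without the filter, Gabra5 rose by 1.64 per allele lost (SE 0.404, edgeR adjusted p = 0.0154, background 9.27%, and 4.88% higher) and by 3.37 in cKO-/- (edgeR adjusted p = 0.0146, background 9.04%, and 4.97% higher). The value of 2.21 in cKO+/- was not called (edgeR adjusted p = 0.344, background 0.225%). The call was lost without animal Sample_936 (1.46, edgeR adjusted p = 0.0607) or Sample_1385 (1.22, edgeR adjusted p = 0.0874). It was also lost with the covariate for animal numbers (0.58, edgeR adjusted p = 0.545), within the run (0.48, edgeR adjusted p = 0.367) and with brainstem and choroid plexus scores (0.84, edgeR adjusted p = 0.0589). Over the 18 cerebellar libraries, which share dissection and depth, Gabra5 correlated with the choroid plexus sum at r = 0.831, with the brainstem sum at 0.721 and with Gabra3 at 0.842. Brainstem markers summed to 6.53 to 11.5 CPM in controls, 4.196 to 21.7 in cKO+/- and 3.39 to 31.2 in cKO-/-, with 1 of 2 tested called up.

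Gabra6, the granule cell subunit, ranged from 910 to 1040 CPM in controls (median 988), from 677 to 1075 in cKO+/- (median 914) and from 498 to 1017 in cKO-/- (median 731). The groups overlapped, since the 5 mutants within the run held 933.2 to 1075 CPM and the 7 outside it 498 to 896. The fitted difference of -0.17 per allele lost was not called (SE 0.0719, edgeR adjusted p = 0.113), nor was that of -0.34 in cKO-/- (SE 0.146, edgeR adjusted p = 0.121). Leaving out either cKO-/- animal within the run turned the per-allele value into a call, at -0.22 without Sample_1160 (edgeR adjusted p = 0.0435) and -0.22 without Sample_1219 (edgeR adjusted p = 0.0418). With animals of the run alone the sign changed, to 0.03 (edgeR adjusted p = 0.720). Gabra6 followed the summed granule cell markers across libraries (r = 0.960, n = 18), which ranged from 6584 to 7313 CPM in controls, 4317 to 8151 in cKO+/- and 3782 to 7931 in cKO-/-, with 0 of 10 called by edgeR or DESeq2 and 1 at an unadjusted p under 0.05. Gabra6 is not in that marker list. The part of granule cell content in the Gabra6 values was not tested.

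Gabra4 showed no called difference in the cerebellum. It ranged from 44.0 to 52.7 CPM in controls (median 49.6), from 45.5 to 58.1 in cKO+/- (median 51.4) and from 41.5 to 64.3 in cKO-/- (median 52.2), with overlap of all groups. The value per allele lost was 0.07 (SE 0.0427, edgeR adjusted p = 0.303).

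**Figure D2:**
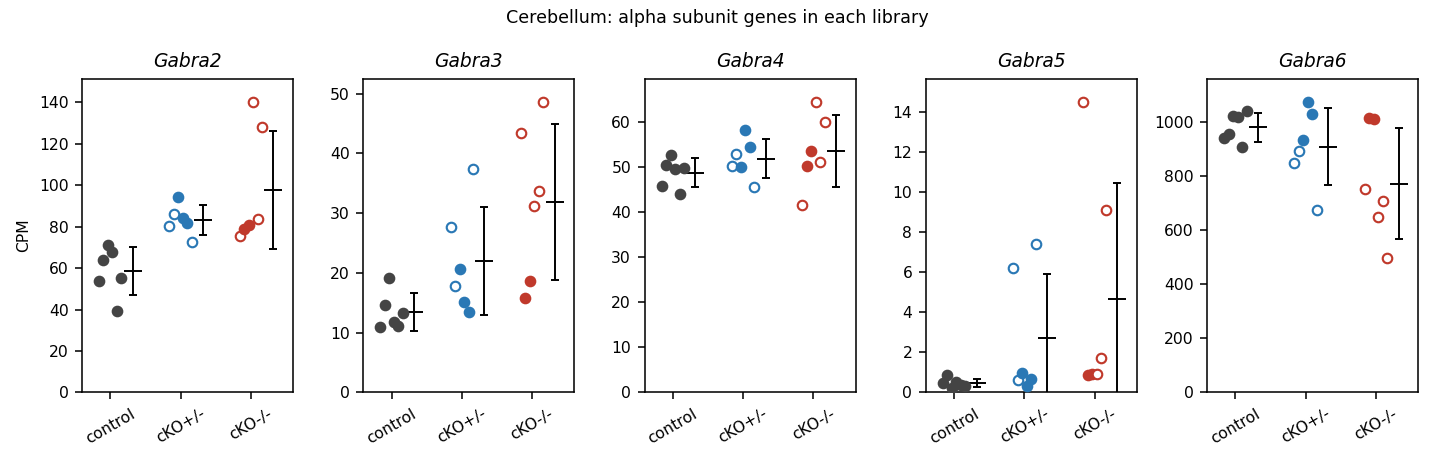
CPM of each gene in every cerebellar library by genotype, with the mean ± SD as a bar, where filled points are animals numbered Sample_1120 to Sample_1219 and open points animals outside that run. All 12 mutants lie above the controls for Gabra2 (lowest 72.6 against 71.3), while the high Gabra3 and Gabra5 and low Gabra6 values are open points.

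In the hippocampus, 1 of the 4 members that passed the filter was called per allele lost, Gabra2, where 4.44% of 14339 genes were called and 2.09% were called higher. Gabra2 was the 1 member called in cKO-/- too (background 4.87%, and 2.29% higher), and DESeq2 called Gabra3 in addition in both comparisons. In cKO+/- no member was called by edgeR or DESeq2, and Gabra3 had an unadjusted p under 0.05 (background 0.0349%).

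Gabra2 ranged from 105 to 142 CPM in control hippocampus (median 119) and from 114 to 196 in cKO+/- (median 129). The 5 cKO-/- libraries used stood at 120, 152, 193, 209 and 221 CPM, so all but animal Sample_936 lay above every control, while the library of Sample_1160 that was left out held 40.7. The increase was 0.29 per allele lost (SE 0.0725, edgeR adjusted p = 0.0294), or 1.22-fold, and 0.58 in cKO-/- (SE 0.148, edgeR adjusted p = 0.0305). In cKO+/- it was 0.19 and not called (SE 0.141, edgeR adjusted p = 0.709). With the library of Sample_1160 kept, the per-allele value was 0.19 (edgeR adjusted p = 0.421). With the covariate for animal numbers it was 0.19 (edgeR adjusted p = 0.775). Within the run of Sample_1120 to Sample_1219, where Sample_1219 was the only cKO-/- library, it was 0.12. The adjusted p with edgeR was also above the threshold of 0.05 without control Sample_1129 (0.0553), Sample_1170 (0.0551), Sample_1190 (0.0659) or Sample_1192 (0.0563) and without cKO-/- animal Sample_1371 (0.108), Sample_1379 (0.113) or Sample_1385 (0.0811), with per-allele values of 0.24 to 0.29. In the other 10 such fits Gabra2 was called. The library of Sample_1160 differed in other genes as well, with summed interneuron markers at 2283 CPM against 747 to 1077 in the other hippocampi.

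Gabra3 ranged from 36.7 to 76.0 CPM in controls (median 59.7) and from 67.1 to 101 in cKO+/- (median 81.2). The cKO-/- libraries stood at 63.6, 74.8, 79.7, 95.4 and 102 CPM, and both mutant groups overlapped the 2 highest controls. The value per allele lost was 0.28 (SE 0.0929, edgeR adjusted p = 0.102, DESeq2 adjusted p = 0.0318). The genotypes had like estimates, 0.54 in cKO+/- (SE 0.158, edgeR adjusted p = 0.266) and 0.53 in cKO-/- (SE 0.167, edgeR adjusted p = 0.0777). The value in cKO-/- was called without control Sample_1170, at 0.62 (edgeR adjusted p = 0.0464). Markers of thalamus and striatum, 3 of 12 of which fell, summed to 283 to 380 CPM in controls, 260 to 285 in cKO+/- and 259 to 315 in cKO-/-. Across the 17 hippocampi Gabra3 and that sum had r = -0.785, and the part of these cells in the Gabra3 values was not tested.

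Gabra4 and Gabra5 were not called in any genotype comparison of the hippocampus. Gabra4 ranged from 114 to 150 CPM in controls (median 118), from 99.1 to 121 in cKO+/- (median 114) and stood at 121, 121, 140, 147 and 148 in cKO-/-. Its value per allele lost was 0.06 (SE 0.0458, edgeR adjusted p = 0.460), with estimates of opposite sign in cKO+/- (-0.12, SE 0.0751) and cKO-/- (0.14, SE 0.0787). Markers of the dentate gyrus summed to 390 to 748 CPM in controls, 241 to 483 in cKO+/- and 343 to 426 in cKO-/-, with 1 of 6 called up and 2 down, and their part in the Gabra4 values was not tested. Gabra5 ranged from 183 to 273 CPM in controls (median 216), from 180 to 239 in cKO+/- (median 212) and stood at 227, 239, 256, 261 and 261 in cKO-/-. The groups overlapped, and the value per allele lost was 0.07 (SE 0.0447, edgeR adjusted p = 0.375). Gabra4 and Gabra5 varied together across the 17 hippocampi (r = 0.847).

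Gabra6 failed the filter in the hippocampus. The 12 mutants had 0 to 5 counts, 6 of them 0 and 10 at or under 3 counts, the floor used here, which corresponds to 0.0715 to 0.172 CPM. Of the controls, Sample_1129 and Sample_1190 had 1773 and 44 counts and the other 4 had 1 to 5. No fold change is given, since both groups are near the floor once these libraries are set aside.

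**Figure D3:**
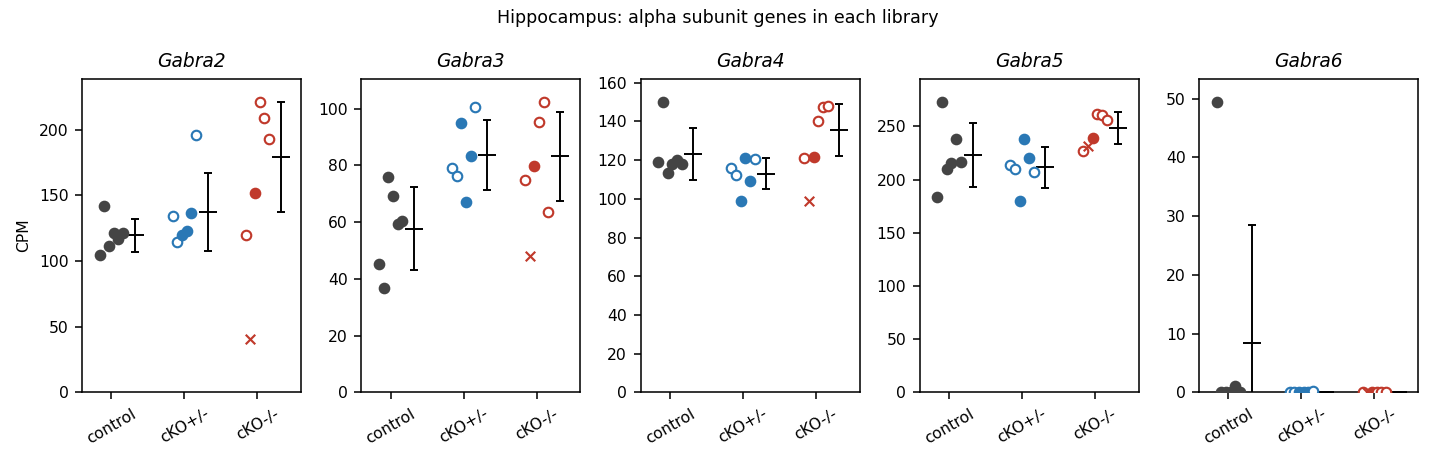
CPM of each gene in every hippocampal library by genotype, with the mean ± SD of the libraries used as a bar, where filled points are animals numbered Sample_1120 to Sample_1219, open points animals outside that run, and the cross is cKO-/- animal Sample_1160, which was not used. For Gabra2, 4 of the 5 cKO-/- libraries used lie above the highest control (142), and Sample_1160 is the lowest library at 40.7.

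**Figure D4:**
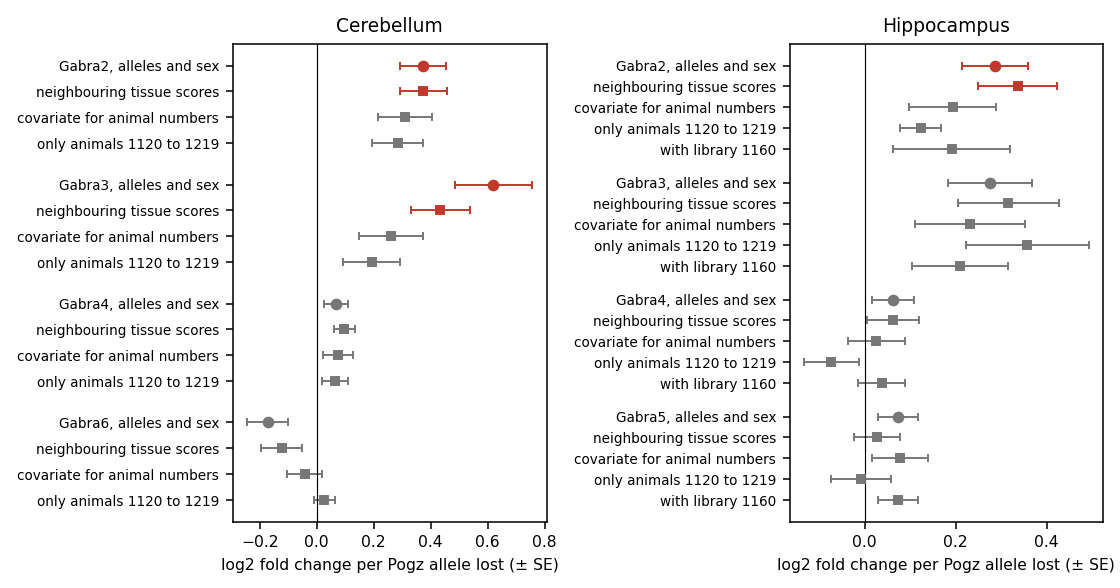
Log2 fold change per Pogz allele lost for each gene under the design with alleles and sex (circles) and under other settings (squares), with standard errors as bars and red for an adjusted p under 0.05. Cerebellar Gabra2 lies between 0.28 and 0.37 and Gabra3 between 0.19 and 0.62, and both lose their call with the covariate for animal numbers and in animals of the run alone.

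The composition of the 5 genes was compared as the share of each in their summed counts per kilobase of exon. The shares are over these 5 genes and not over every alpha subunit, and since they add to 100%, a higher share of any gene lowers the others. In control cerebellum Gabra6 made up 90.8% ± 1.05 (SD, n = 6), Gabra2 5.61% ± 0.896, Gabra4 2.72% ± 0.0850, Gabra3 0.830% ± 0.165 and Gabra5 0.0405% ± 0.0193. Control hippocampus was spread more evenly, with Gabra5 at 45.6% ± 3.42, Gabra2 at 27.4% ± 1.40, Gabra4 at 16.4% ± 0.627 and Gabra3 at 8.62% ± 2.49. Gabra6 averaged 1.96% there with animal Sample_1129 at 11.5%, and the other 5 controls held at most 0.238%. Of 20 comparisons of a share between a mutant genotype and control, 11 passed a 2-sided exact permutation test after Benjamini-Hochberg adjustment. The smallest unadjusted p this design can give is 0.00216.

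In the cerebellum, the share of Gabra6 was lower in both mutant genotypes without overlap of the groups. It was 86.8% ± 2.09 in cKO+/- (83.4 to 89.0) and 81.8% ± 7.42 in cKO-/- (70.3 to 89.2), against 89.6 to 92.3 in controls (adjusted p = 0.00722 for each, exact permutation test). The share of Gabra2 was higher by 2.76 percentage points in cKO+/- and 5.95 in cKO-/-, at 8.36% ± 0.880 in cKO+/- and 11.6% ± 5.09 in cKO-/-, again without overlap (adjusted p = 0.00722 for each, exact permutation test). Within the run of Sample_1120 to Sample_1219 the groups did not overlap either, but the differences in cKO-/- were smaller, at 1.66 points for Gabra2 against 5.95 and -1.89 points for Gabra6 against -8.96 with all animals. In cKO+/- they were 2.30 points for Gabra2 and -2.58 for Gabra6. The 5 mutants of the run had Gabra6 shares of 86.7 to 89.2% and Gabra2 shares of 7.18 to 9.13%, against at most 6.50% in controls. The share of Gabra3 rose to 2.48% ± 1.37 in cKO-/- (adjusted p = 0.0241, exact permutation test), and was 1.503% ± 0.867 in cKO+/- (adjusted p = 0.0633, exact permutation test). Gabra4 was higher in cKO+/- at 3.01% ± 0.216 (adjusted p = 0.0216, exact permutation test), and Gabra5 in cKO-/- at 0.522% ± 0.649 (adjusted p = 0.0186, exact permutation test). Within the run, mutant shares were 0.781 to 1.28% for Gabra3, 2.65 to 2.90% for Gabra4 and 0.0237 to 0.0849% for Gabra5, inside or close to the control ranges of 0.695 to 1.12%, 2.64 to 2.85% and 0.0185 to 0.0751%. With an animal left out, some adjusted p-values passed 0.05 while the differences hardly moved. Gabra3 in cKO-/- differed by 1.63 to 1.64 points without Sample_1129, Sample_1190 or Sample_1192 (adjusted p = 0.0519 to 0.0577, exact permutation test), against 1.65 with all animals. Gabra4 in cKO+/- differed by 0.282 points without Sample_1192 (adjusted p = 0.0519, exact permutation test), against 0.297. Gabra5 in cKO-/- differed by 0.477 to 0.488 points without any of the 6 controls in turn (adjusted p = 0.187 to 0.224, exact permutation test), against 0.481.

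In the hippocampus, Gabra4 had a lower share in both mutant genotypes without overlap, at 14.7% ± 0.860 in cKO+/- (13.6 to 15.6) and 14.8% ± 0.949 in cKO-/- (13.6 to 15.9), against 15.9 to 17.5 in controls (adjusted p = 0.00722 for each, exact permutation test). The nearest values, the highest cKO-/- at 15.893% and the lowest control at 15.908%, differed by less than the spread within either group. Gabra2 rose to 33.2% ± 3.96 in cKO-/- (adjusted p = 0.0260, exact permutation test) and was 30.6% ± 3.87 in cKO+/- (adjusted p = 0.0633, exact permutation test). Gabra3 rose to 12.1% ± 1.86 in cKO+/- (adjusted p = 0.0354, exact permutation test) and was 10.02% ± 1.48 in cKO-/- (adjusted p = 0.324, exact permutation test). The share of Gabra5, the leading member, was 42.6% ± 4.03 and 42.0% ± 2.97 and did not pass (adjusted p = 0.214 and 0.124, exact permutation test). With the library of Sample_1160 kept, neither the Gabra2 share (2.23 percentage points higher in cKO-/-, adjusted p = 0.656, exact permutation test) nor the Gabra4 share (-1.18 points, adjusted p = 0.0989, exact permutation test) passed in cKO-/-. The difference of Gabra2 in cKO-/- was 5.32 to 6.01 points, against 5.74, without Sample_1129, Sample_1170, Sample_1190 or Sample_1192, where it did not pass (adjusted p = 0.0519 to 0.0577, exact permutation test). The difference of Gabra3 in cKO+/- was 2.68 to 3.59 points, against 3.46, where it did not pass without Sample_933, Sample_938, Sample_1120, Sample_1129, Sample_1155, Sample_1189, Sample_1190, Sample_1192 or Sample_1433 (adjusted p = 0.0541 to 0.0787, exact permutation test).

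**Figure D5:**
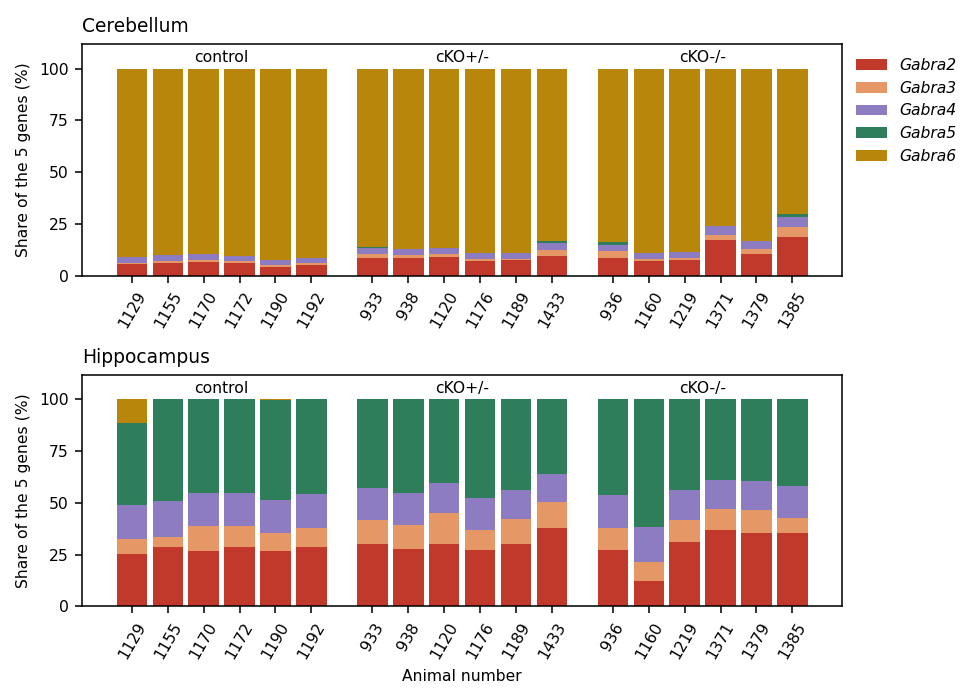
Share of each of the 5 genes in their summed counts per kilobase of exon, as stacked bars for every animal in the cerebellum and the hippocampus. Gabra6 fills 89.6 to 92.3% of control cerebellum and 70.3 to 89.2% in cKO-/-, while Gabra5 and Gabra2 make up most of every hippocampal bar.

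The difference between tissues in the allele effect was tested directly over both tissues, where 1.63% of 14870 genes were called and 1.39% were called lower in the hippocampus. Gabra5 and Gabra6, 2 of the 5 members, had an adjusted p under 0.05, both with a lower value in the hippocampus. Each passed the filter of this fit only through the tissue where it is high, Gabra5 through the hippocampus and Gabra6 through the cerebellum, so their count is not read against the background. For Gabra5 the difference was -1.47 (SE 0.392, edgeR adjusted p = 0.0421), and with the animal as a block, since each gave both tissues, -1.37 (edgeR adjusted p = 0.121). The call was also lost without the filter for low counts and without the sex term. It was lost in 12 of 18 fits that left out an animal (Sample_936, Sample_938, Sample_1120, Sample_1129, Sample_1155, Sample_1170, Sample_1172, Sample_1176, Sample_1189, Sample_1190, Sample_1192 and Sample_1385), with adjusted p of 0.0519 to 0.191 with edgeR. For Gabra6 the difference was -6.33 (SE 1.14, edgeR adjusted p = 0.00180), a contrast with hippocampal counts of 0 to 5 in every library but those of controls Sample_1129 and Sample_1190, from which no size of effect can be read. With the animal as a block it was -3.51 (edgeR adjusted p = 0.206), and without Sample_1129 it was -1.95 (edgeR adjusted p = 0.0467). Gabra2 (-0.10, SE 0.115, edgeR adjusted p = 0.760), Gabra3 (-0.35, SE 0.176, edgeR adjusted p = 0.355) and Gabra4 (-0.02, SE 0.0673, edgeR adjusted p = 0.944) had no called difference between tissues. Across the 17 animals with both tissues, the levels in cerebellum and hippocampus had r = 0.607 for Gabra2, 0.521 for Gabra3 and 0.305 for Gabra4, given as a description that includes the genotype differences.

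Sex was not a called factor for any of the 4 members tested in either tissue with edgeR or DESeq2, and none had an unadjusted p under 0.05 (background 0.0499% in the cerebellum and 0.907% in the hippocampus). For the X-linked Gabra3, females and males stood at medians of 17.9 and 18.7 CPM in the cerebellum and 72.5 and 79.1 in the hippocampus, with ranges that overlapped almost whole. The fitted difference, female against male, was -0.13 (SE 0.220, edgeR adjusted p = 0.9999) in the cerebellum and 0.05 (SE 0.144, edgeR adjusted p = 0.893) in the hippocampus.

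The genes that work with the alpha subunits were counted per list, in the fit per allele lost. Of 13 other GABA-A subunits, 7 were tested in the cerebellum, where edgeR and DESeq2 called 0 and 1 had an unadjusted p under 0.05. In the hippocampus 8 were tested, of which edgeR called 0 and DESeq2 2, and 3 had an unadjusted p under 0.05. The list medians were 0.03 and 0.06 on the log2 scale, beside 0.00087 and 0.0017 over all genes. Gabrd, the delta subunit that pairs with alpha6 in granule cells and alpha4 in the dentate gyrus, was at -0.21 in both tissues (SE 0.0833, edgeR adjusted p = 0.0990 in the cerebellum, and SE 0.0699, edgeR adjusted p = 0.0931 in the hippocampus). Gabrd is named here after its values were seen. Of 25 genes for anchoring and assembly, 1 rose and 1 fell in the cerebellum and 1 fell in the hippocampus, or 8.0% and 4.0% called, beside 13.7% and 4.44% over all genes, so neither share was above the background. The gene that fell in the cerebellum was Nrxn3, a presynaptic adhesion protein (-0.14, SE 0.0445, edgeR adjusted p = 0.0414), from 356 ± 22.3 CPM in controls to 293 ± 42.9 in cKO-/-. In the hippocampus it was Shisa7, an auxiliary subunit of the receptor (-0.20, SE 0.0508, edgeR adjusted p = 0.0275), from 331 ± 24.4 to 250 ± 49.2 CPM.

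Of 12 genes of GABA synthesis, transport and breakdown, 4 rose in the cerebellum (33.3%, beside 7.11% of all genes), with a list median of 0.11 per allele. Gad2, which makes GABA, rose from 204 ± 33.7 CPM in controls to 240 ± 21.1 in cKO+/- and 287 ± 60.9 in cKO-/- (0.25, SE 0.0596, edgeR adjusted p = 0.0121). Abat, which breaks GABA down, rose from 423 ± 43.7 to 535 ± 78.01 CPM (0.17, SE 0.0452, edgeR adjusted p = 0.0207). Of 6 genes of the GABA-B receptor list, 2 rose in the cerebellum (33.3%, beside the same 7.11%). Kctd12, an auxiliary subunit of that receptor, rose from 390 ± 74.3 CPM to 569 ± 65.0 (0.27, SE 0.0666, edgeR adjusted p = 0.0134). No gene of the 4 lists was called up by edgeR in the hippocampus, where the GABA-B list had 0 calls by edgeR and DESeq2 and 1 unadjusted p under 0.05. Glul, glutamine synthetase of astrocytes, fell there from 1411 ± 78.9 to 1170.03 ± 106 CPM (-0.13, SE 0.0311, edgeR adjusted p = 0.0196). With the covariate for animal numbers, these named genes lost their calls by edgeR. The values were then 0.18 for Gad2 (edgeR adjusted p = 0.217), 0.09 for Abat (edgeR adjusted p = 0.369), 0.25 for Kctd12 (edgeR adjusted p = 0.133), -0.06 for Nrxn3 (edgeR adjusted p = 0.540), -0.12 for Shisa7 (edgeR adjusted p = 0.784) and -0.11 for Glul (edgeR adjusted p = 0.517).

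The genes whose levels were most like those of each member were found by the correlation of log2 CPM over the libraries of a tissue, given as a description. In the cerebellum (18 libraries) Gabra2 was nearest to Gyk (r = 0.933), Gad2 (0.931) and Zpbp (0.925), and Gabra3 to Htr7 (0.956), Pde1b (0.956) and Kcnab2 (0.951). Gabra4 was nearest to Cacng2 (0.915), Cep126 (0.888) and Arhgef33 (0.884). Gabra6 was nearest to Chn2 (0.980), Pxylp1 (0.960) and Kank2 (0.958). In the hippocampus (17 libraries) Gabra2 was nearest to E430025E21Rik (0.967), Ncam2 (0.945) and Rgs5 (0.941), and Gabra3 to Ldb2 (0.960), Tacr3 (0.955) and Dsc3 (0.949). Among the genes nearest to Gabra4 were Casd1 (0.948) and Lppr5 (0.928), and among those nearest to Gabra5 were Lpl (0.940) and 4930429B21Rik (0.938). These libraries share genotype, dissection and depth, which enter every such correlation.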

How the data were processed

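Poly(A) RNA from cerebellum and hippocampus of 18 mice was sequenced as paired ends. Reads were aligned and counted per gene by the authors with STAR (version 250a, per the submitters' processing notes), and the deposited values are raw counts. The methods name mm9, while the exon coordinates in the tables lie on GRCm38. The strand setting is not given in the sources used here.

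Counts were scaled by TMM and tested in R 4.3.3 with edgeR 4.0.16 (quasi-likelihood test, limma 3.58.1) within each tissue, for genes above 1 CPM in at least 6 libraries, with sex and the number of Pogz alleles lost, or genotype, as terms. P-values were adjusted by Benjamini-Hochberg over all genes tested, at 0.05. DESeq2 1.42.0 was an alternative, with its values kept to 3 digits. Group CPM values are scaled within a tissue, and levels per kilobase of exon over all 36 libraries. Shares were tested by exact permutation in Python 3.11.15 (numpy 2.4.6, scipy 1.17.1). Correlations used log2 CPM, with a prior count of 2 for the genes most like each member and for departures from group means. Those between members within a tissue, and with marker sums, used log2 of CPM plus 1. The study excluded an outlier without naming the sample or its tissue. The hippocampal library of Sample_1160 was taken here to be that sample, and all 18 libraries are an alternative. P-values measure the spread between animals. Intervals of depth are not given, and the floor of 3 counts covers counting error only.

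The members and the gene lists were chosen with earlier results of these data known. Besides the members, the text names the genes of the 4 GABA lists with the lowest adjusted p, up to 3 in each direction, and the 3 genes most correlated with each member, of which some are not reported here. Fits without the filter for Gabra5 in the cerebellum, and fits on animals Sample_1120 to Sample_1219 alone, were added after seeing the data. Each animal gave both tissues, so its number pairs the libraries. Taken as departures from the mean of each group, the cerebellum and hippocampus of an animal correlated with a median of 0.168 (-0.156 to 0.345, above 0.1 in 9 of 17 animals), against -0.027 for other animals of the same genotype. On simulated counts for the 14027 cerebellar genes, 88 of 100 genes changed by 0.4 (log2 per allele) and 96 of 98 changed by 0.8 were called, with 2 unchanged genes called. On 14305 hippocampal genes, 85 of 99 and 98 of 98 were called, with 11 unchanged genes called.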

Additional observations from a re-analysis of the deposited data

Results flagged for a closer look

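Of 30 groups of members' CPM values examined, 3 held a library far from the others by Dixon's test, which by chance marks about 1 in 20 groups. The hippocampal library of cKO+/- animal Sample_1433 had Gabra2 at 196 CPM, against 114 to 137 in the other 5. In control hippocampus, Gabra4 stood at 150 CPM in animal Sample_1155, against 114 to 120 in the others. Also in control hippocampus, Gabra6 stood at 49.4 CPM in animal Sample_1129, against 0.0335 to 1.09 in the others.

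In the test of the difference in allele effect between tissues, the value was -1.47 on the log2 scale for Gabra5 (hippocampus minus cerebellum, edgeR adjusted p = 0.0421) and -6.33 for Gabra6 (edgeR adjusted p = 0.00180). Each gene passed the filter only through the tissue where it is high, and that of Gabra6 is a contrast with hippocampal counts of 0 to 5 in most libraries, so neither is read as a difference in effect. With the animal as a block the adjusted p-values with edgeR were 0.121 for Gabra5 and 0.206 for Gabra6.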

How the results depend on the processing

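Over all members and comparisons, 1341 values obtained with an alternative kept their direction and their side of the threshold, 88 lost a call, 21 gained one, 24 changed sign and 2 shares moved by more than the spread between animals. The causes were not tested. The number of genes called per allele lost in the cerebellum was 1916, with 308 after a covariate for animal numbers, 1059 with neighbouring tissue scores, 277 in animals Sample_1120 to Sample_1219 alone (added after seeing the data) and 935 to 2572 without each animal in turn. It was 1161 without Sample_1129, 1013 without Sample_1190, 1234 without Sample_1371 and 935 without Sample_1385. With the same settings in the same order, cKO-/- cerebellum gave 1780, 280, 842, 276 and 862 to 2476, and cKO+/- cerebellum 48, 24, 22, 19 and 32 to 55, with 158 by DESeq2. Hippocampus per allele gave 636, then 68, 1053, 27 and 286 to 937, with 246 for all 18 libraries and 1056 by DESeq2 (365 without Sample_1190, 286 without Sample_1371, 305 without Sample_1379). Hippocampal cKO-/- gave 699, then 81, 1165, 10 and 335 to 1622, with 256 for all 18 and 1161 by DESeq2, and cKO+/- 5, then 2, 8, 1 and 2 to 151, with 3 for all 18 and 95 by DESeq2. Sex gave 7 genes in the cerebellum (17 by DESeq2, 7 to 9 without each animal) and 130 in the hippocampus (625 by DESeq2, 16 with tissue scores, 6 with all 18, 322 in animals Sample_1120 to Sample_1219, 30 to 212 without each animal). The tissue comparison gave 10227 genes (9552 to 10275 without each animal) and 10377 with the animal as a block. The tissue-by-allele comparison gave 243, 461 by DESeq2, 354 with the animal as a block and 115 to 469 without each animal. Of 20 share tests 11 passed, and 7 to 14 without each animal. Shares that passed only with an animal left out were cerebellar Gabra4 in cKO-/- (Sample_936 or Sample_1160), Gabra3 in cKO+/- (Sample_1176 or Sample_1189) and Gabra5 in cKO+/- (Sample_1176), and hippocampal Gabra2 in cKO+/- (Sample_938 or Sample_1176), with exact permutation adjusted p of 0.01998 to 0.0433. Hippocampal Gabra6 in cKO-/- passed with any control left out (adjusted p = 0.0265 to 0.0317, exact permutation test). It also passed with all 18 libraries (-1.96 points, adjusted p = 0.00722, exact permutation test). That share rests on 0 or 1 counts in cKO-/- and on 1 to 5 in the controls other than Sample_1129 and Sample_1190, near the floor of 3 counts. The block ended the calls of Gabra5 and Gabra6 between tissues in allele effect and changed no other member's call. That call of Gabra5 was also lost without the filter for low counts and without the sex term.

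No value that changed sign was a call. In the cerebellum, Gabra6 in cKO+/- was 0.12 with the covariate for animal numbers, 0.0275 with tissue scores and 0.0432 in animals Sample_1120 to Sample_1219, where it was 0.0472 in cKO-/- and 0.0268 per allele. In animals Sample_1120 to Sample_1219, hippocampal Gabra4 was -0.0682 in cKO-/- and -0.0738 per allele, and Gabra5 -0.00792 per allele. Sample_1219 was the only cKO-/- library in these hippocampal fits. For sex, cerebellar Gabra3 was 0.0149, 0.26 and 0.12 under those 3 settings, and Gabra6 -0.0116 and -0.0714 under the first 2, and below 0 without Sample_1160, Sample_1176 or Sample_1433 (-0.0249 to 0.108 over all animals left out). Hippocampal Gabra3 for sex was -0.0356 with all 18 libraries, and -0.0357 to 0.132 without each animal in turn (below 0 without Sample_1120 or Sample_1155), as Gabra4 was -0.0581 to 0.0384 (above 0 without the same animals). The Gabra4 difference between tissues was -0.0554 to 0.0173 without each animal in turn, above 0 without Sample_1129, Sample_1155 or Sample_1371. Depth limits Gabra5 in control cerebellum (6 to 25 counts) and Gabra6 in the hippocampus of mutants (0 to 5 counts).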
